A study of Danio rerio with 6 samples.

Results

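Mitosis, spindle and condensin genes were followed in regrowing tail fins of larval zebrafish under a glucocorticoid. They were picked by gene symbol, from the names of condensin, cohesin, kinesin, centromere, checkpoint, cyclin, mitotic kinase and lamin B genes. The rule itself uses no measured value, but it was set with earlier results of these data known. The rule found 65 genes, represented by 94 probe sets, among 8793 genes with a name on the array. AB strain larvae had their caudal fin cut at 2 days post fertilization, and the regrowing fin tissue was taken 1 day after amputation. In the first group the larvae swam in 1 uM of the synthetic glucocorticoid beclomethasone, and in the second they were controls. Each group had 3 pools, each pool held 150 fins, and each pool was measured on 1 Affymetrix zebrafish array. The labels of the exposed pools name DMSO as the vehicle, while the protocol given for the controls covers several times of regrowth without naming a vehicle, so the exposure cannot be told apart from any other difference between the 2 sets of pools. Nothing states that the pools came from separate clutches or days, so p-values measure only the spread between these pools.

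Mitosis is driven by the kinase Cdk1 with its A- and B-type cyclins, helped by the Polo and Aurora kinases. Condensin folds the chromosomes, cohesin holds sister chromatids together, and kinetochores built on the centromeres tie the chromosomes to a spindle that motor proteins of the kinesin family shape. The spindle checkpoint holds back the anaphase-promoting complex until all chromosomes are attached, and Cdc20 then starts its work, after which the cell divides. Most of these genes are transcribed chiefly in dividing cells, which makes their transcripts a common readout of proliferation. Fin regeneration needs cell division: in zebrafish, loss of the checkpoint kinase encoded by ttk is known to impair it.

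What was deposited is a ratio for each pool. For most probe sets the 6 ratios had a median of 1, so they were read as the pool's signal over the median of that probe set. No source used here states this divisor. A ratio of 1 is then the middle of the 6 pools, and no absolute level is known. Where the groups did not overlap for a probe set of this kind, the construction sets the highest pool of one group and the lowest pool of the other evenly on either side of 1. Over all genes the medians of the log2 ratios lay between -0.06 and -0.01 in the exposed pools and between -0.06 and -0.03 in the control pools. Across genes, the log2 ratios of any pair of exposed pools correlated at 0.678 to 0.752, those of any pair of controls at 0.576 to 0.784, and those of an exposed with a control pool at 0.0855 to 0.292. These correlations are across genes, which are not independent replicates. Of 19 epidermal and 15 fin fold mesenchyme marker genes, 17 and 12 were on the array, and since ratios carry no level, the presence of these tissues could not be checked.

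Transcripts of the mitotic machinery were lower in beclomethasone-exposed fins. Of the 65 genes, 35 fell and 0 rose in limma at an adjusted p under 0.05 over all genes, with 44 at an unadjusted p under 0.05, and 30 did not pass. Over all genes tested, 4.58% were lower and 4.24% higher by the same test, and 24.1% had an unadjusted p under 0.05. The median log2 difference, exposed minus control, was -0.74 for these genes and 0.02 for all genes, and 54 of the 65 had a negative difference, against 45.7% of all genes. The 35 genes that fell had differences from -1.58 to -0.49 on the log2 scale, and 18 of them were at least 2-fold lower, against 1.27% of all genes. In 43 of the 65 genes every exposed pool lay below every control pool, which held for 13.7% of all genes. The opposite arrangement was found in 1 gene, kif5aa, and in 16% of all genes. In pooled tissue, fewer dividing cells and less of these transcripts in each dividing cell cannot be told apart. The call was held by 22 of the 35 genes without any 1 of the 6 arrays, which was not counted over all genes. With a single array left out, the number that fell became 24, 24 and 25 on dropping exposed pools 1, 2 and 3, and 38, 25 and 23 on dropping control pools 1, 2 and 3. Of all genes 2.01%, 2.04% and 1.96% were lower on dropping these exposed pools, and 5.99%, 2.46% and 2.37% on dropping these control pools.

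**Figure D1:**
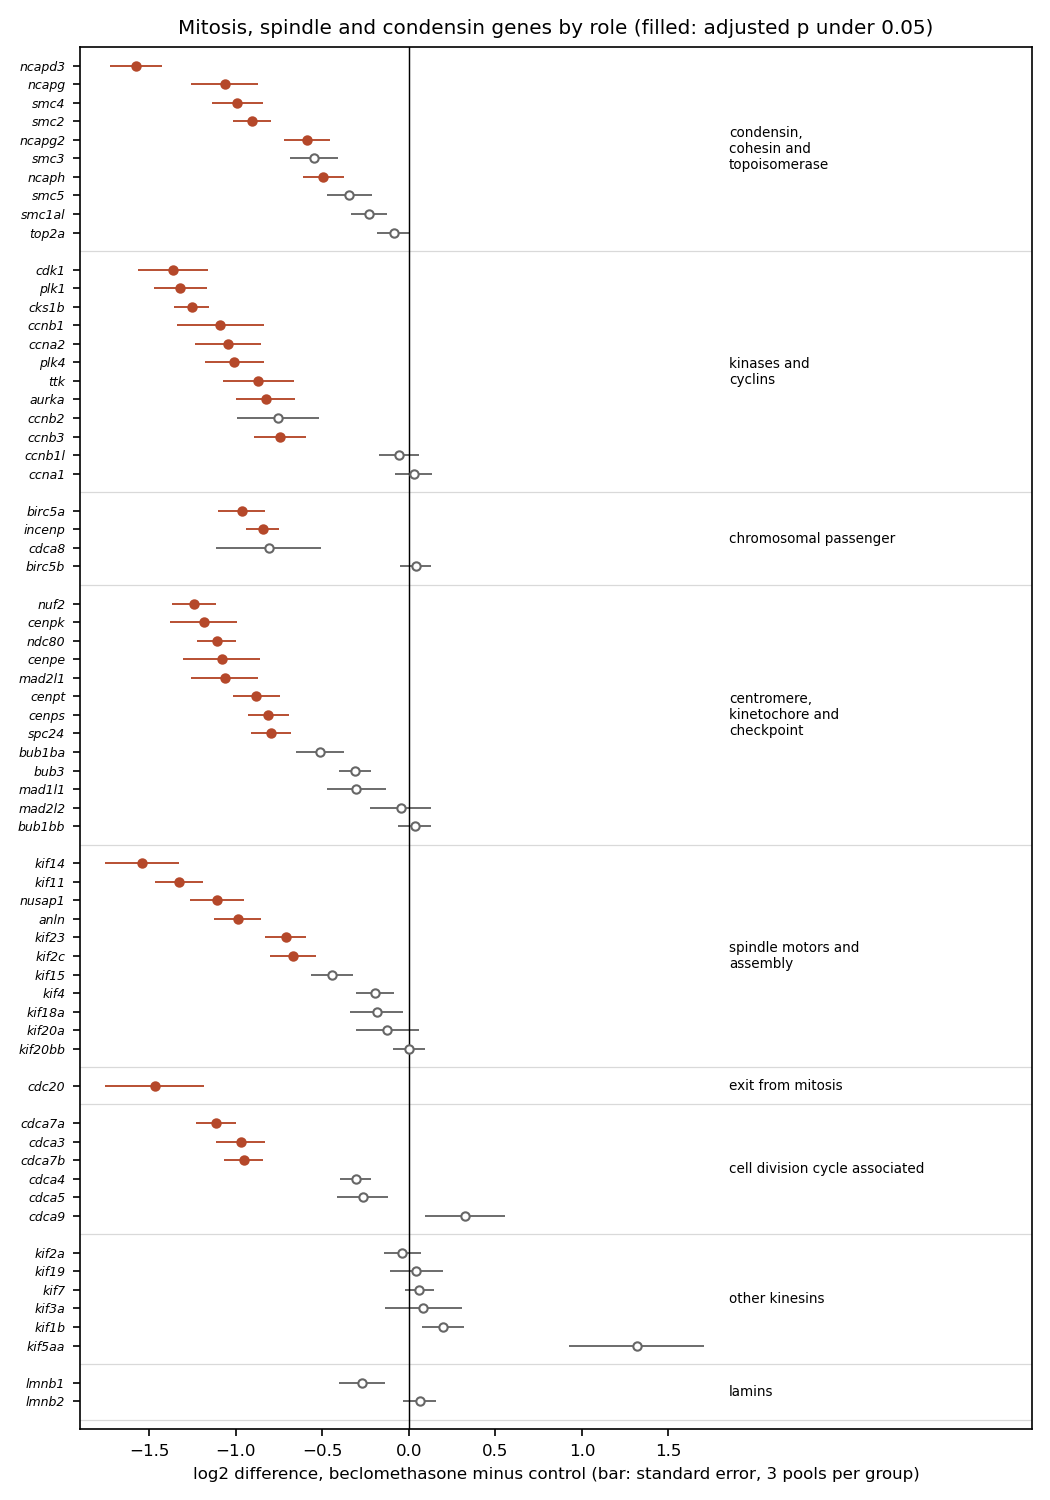
Log2 differences (exposed minus control, horizontal axis) of the 65 mitosis, spindle and condensin genes, grouped by role, with bars for the standard error over 3 pools per group. Filled points mark the 35 genes with an adjusted p under 0.05, all of them to the left of 0, while the 6 other kinesins and the 2 lamins have open points near or right of 0, apart from lmnb1 at -0.27.

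All 6 measured condensin genes of the symbol rule were lower in exposed fins. Of 10 genes of condensin, cohesin, the Smc5 complex and topoisomerase, 6 fell, with a median difference of -0.57. The condensin II subunit gene ncapd3 had ratios of 0.460, 0.616 and 0.514 in exposed pools 1 to 3, against 1.53, 1.82 and 1.38 in control pools 1 to 3. All exposed pools thus lay far below all control pools. The log2 difference was -1.58 ± 0.15 (SE, n = 3 pools per group; 2.98-fold lower; limma adjusted p = 0.00204), the most negative among the 65 genes. Smc2 and smc4 encode the paired ATPase subunits that both condensin complexes share. Ratios of smc4 were 0.641, 0.750 and 0.782 in exposed pools, against 1.41, 1.71 and 1.22 in control pools, a difference of -0.99 ± 0.15 (adjusted p = 0.0104 in limma). Those of smc2, averaged over 2 probe sets, were 0.559, 0.599 and 0.676 in exposed and 1.05, 1.22 and 1.16 in control pools, a difference of -0.90 ± 0.11 (adjusted p = 0.00495 in limma). The groups were apart for both core subunits. The condensin I subunit gene ncapg had ratios of 0.618, 0.779 and 0.829 in exposed pools and 1.17, 1.81 and 1.72 in control pools, with control pool 1 closest to the exposed ones. Its difference was -1.06 ± 0.19 (limma adjusted p = 0.0201), and the call needed each exposed pool and controls 2 and 3.

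The other condensin genes fell by less. They were ncapg2 of condensin II (-0.59, limma adjusted p = 0.0402) and ncaph of condensin I (-0.49, limma adjusted p = 0.0461). Both of these calls needed each exposed pool and controls 2 and 3, that of ncaph was also lost with a pseudocount of 1, and that of ncapg2 also after quantile normalization or centring of the arrays (adjusted p = 0.0587 and 0.0528). The cohesin genes smc3 (-0.55 ± 0.14, limma adjusted p = 0.0538; 0.0238 with a trended robust variance, 0.0153 with array weights and 0.0324 without control pool 1) and smc1al (-0.23 ± 0.10, adjusted p = 0.227), and smc5 (-0.34 ± 0.13, adjusted p = 0.155), did not pass, although their exposed pools lay below all control pools. The cohesin gene rad21a, outside the symbol rule, was named here after its values were seen. It fell by 0.39 on the log2 scale (limma adjusted p = 0.0435), a call lost on dropping any of the 6 arrays. The cohesin genes stag1b (-0.30), stag2a (-0.23) and stag2b (0.04), also outside the rule, did not pass (limma adjusted p = 0.15, 0.252 and 0.906). Top2a, which encodes the topoisomerase that disentangles sister chromatids, had overlapping groups, with ratios of 0.747, 0.799 and 0.873 in exposed and 0.836, 0.841 and 0.889 in control pools over 5 probe sets. Its difference was -0.09 with a 95% interval of -0.32 to 0.14 (adjusted p = 0.671 in limma).

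Among 12 genes of mitotic kinases, their cyclins and their partners, 9 fell, and the median difference was -0.94. The smallest p of all members was that of cks1b, which encodes a small adaptor protein bound to cyclin-dependent kinases. Its ratios were 0.547, 0.632 and 0.633 in exposed pools, against 1.37, 1.48 and 1.46 in control pools. The pools of each group lay close together, and the difference was -1.25 ± 0.10 (2.38-fold lower; adjusted p = 0.00141 in limma). Cdk1, the kinase that starts mitosis, had ratios of 0.519, 0.647 and 0.749 in exposed and 1.73, 1.97 and 1.25 in control pools. The exposed values were all lower, with control pool 3 the nearest to them, and the difference was -1.36 ± 0.20 (2.57-fold lower; adjusted p = 0.00982 in limma). Plk1, the Polo kinase of centrosomes and spindle, had ratios of 0.497, 0.590 and 0.685 in exposed fins, against 1.31, 1.71 and 1.39 in control fins (difference -1.32 ± 0.15, limma adjusted p = 0.00423). For plk4, the kinase of centriole duplication, they were 0.494, 0.697 and 0.774 in exposed fins, against 1.27, 1.39 and 1.23 in control fins (difference -1.01 ± 0.17, limma adjusted p = 0.0164). Neither Polo-type kinase gene had overlapping groups, and both held their call without any 1 array.

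Of the 6 A- and B-type cyclin genes measured, 3 fell. Cyclin B1, the main partner of Cdk1 in mitosis, is encoded by ccnb1, with ratios of 0.511, 0.765 and 0.856 in exposed pools and 1.14, 1.95 and 1.44 in control pools. The pools of each group spread widely without touching, and the difference was -1.09 ± 0.25 (limma adjusted p = 0.0402). Ccna2, the cyclin A gene of somatic cells in mammals, fell by 1.04 on the log2 scale (limma adjusted p = 0.0201), and ccnb3 by 0.74 (adjusted p = 0.0273 in limma). The B-type cyclin gene ccnb2 did not pass (-0.75 ± 0.24, adjusted p = 0.101 in limma), with control pool 2 at 2.16 and the other controls at 1.11 and 1.24 (adjusted p = 0.0363 without control pool 1 and 0.034 with array weights). Ccna1, known in mouse from the male germ line, had a difference of 0.03 with a 95% interval of -0.22 to 0.28, and ccnb1l one of -0.05 with an interval of -0.32 to 0.22. Both genes were measured only by a probe set whose median over the 6 arrays was below 1, a kind of which 0.034% were lower on the whole array, and the differences between the cyclin genes were not tested. The checkpoint kinase gene ttk had ratios of 0.610, 0.831 and 0.855 in exposed pools, against 1.14, 1.82 and 1.27 in control pools (difference -0.87 ± 0.21, limma adjusted p = 0.0441). Aurka, the Aurora kinase of the spindle poles, fell by 0.83 on the log2 scale (adjusted p = 0.0287 in limma). The calls of ccnb1, ttk and aurka likewise needed 5 of the 6 arrays, all but control 1. A call that needed an array was lost without it, but the difference did not always shrink. Without exposed pool 1 the differences of ccnb1, ttk and aurka were -0.87, -0.71 and -0.68. Without exposed pool 3 they were larger in size than with all arrays, at -1.24, -0.96 and -0.92. Those of ccnb1 and ttk were also lost with a pseudocount of 1. The call of ccna2 needed exposed pools 1 and 2 and controls 2 and 3, and that of ccnb3 needed each exposed pool and control 2.

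**Figure D2:**
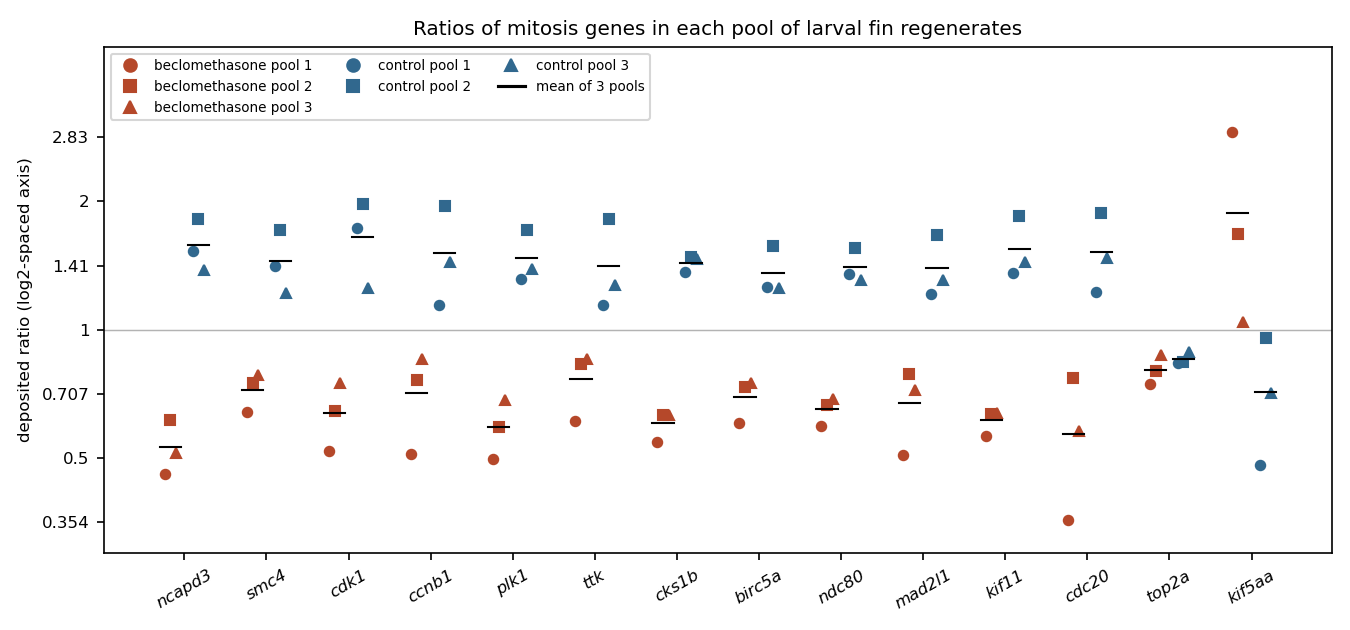
Deposited ratios (vertical axis, spaced by log2) of 14 genes in the 3 exposed pools and the 3 control pools, with a bar at the mean of each group. From ncapd3 to cdc20 all exposed pools lie below 1 and all control pools above it, top2a overlaps, and kif5aa runs the other way, from 1.04 to 2.90 in exposed pools against 0.482 to 0.958 in control pools.

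The chromosomal passenger complex corrects faulty spindle attachments and guides cell division. Of the 4 genes grouped under it here by symbol, 2 fell. Incenp, the scaffold of the complex, had ratios of 0.520, 0.577 and 0.575 in exposed pools, against 1.06, 0.987 and 0.951 in control pools. The exposed values lay close together and well below the others (difference -0.84 ± 0.10, limma adjusted p = 0.00398). These are means over 2 probe sets that differed, at -1.67 and -0.02. The survivin gene birc5a had ratios of 0.606, 0.734 and 0.750 in exposed pools and 1.26, 1.57 and 1.25 in control pools (difference -0.96 ± 0.14, limma adjusted p = 0.00817). Its paralogue birc5b had ratios of 0.460, 0.489 and 0.502 in exposed and 0.467, 0.463 and 0.482 in control pools. These overlapped, with a difference of 0.04 and a 95% interval of -0.17 to 0.24. Birc5b was measured only by a probe set of median below 1, a kind of which 0.034% were lower on the whole array. The difference between the paralogues was not tested. Borealin is encoded by cdca8, whose ratios were 0.677, 0.937 and 1.04 in exposed and 0.958, 2.14 and 1.74 in control pools. Control pool 1 lay within the exposed range, and the difference of -0.81 ± 0.30 did not pass (adjusted p = 0.158 in limma; -1.15 and adjusted p = 0.0122 without control pool 1, and 0.0405 with array weights).

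At the centromere and kinetochore, 8 of 13 genes fell, with a median difference of -0.81. The Ndc80 complex, which grips microtubule ends, was lower in all 3 of its measured subunit genes. Ratios of ndc80 were 0.594, 0.668 and 0.690 in exposed pools, against 1.35, 1.56 and 1.31 in control pools (difference -1.11 ± 0.11, limma adjusted p = 0.00227). Ratios of nuf2 were 0.511, 0.603 and 0.683 in exposed pools, against 1.42, 1.48 and 1.32 in control pools (difference -1.24 ± 0.13, limma adjusted p = 0.00248). Ratios of spc24 were 0.669, 0.698 and 0.822 in exposed pools, against 1.18, 1.38 and 1.24 in control pools (difference -0.80 ± 0.12, limma adjusted p = 0.00948). Each of the 3 genes had separate groups and held its call without any 1 array. Genes of the inner kinetochore, which sits on centromeric chromatin, fell as well. Cenps had ratios of 0.816, 0.761 and 0.761 in exposed pools and 1.18, 1.41 and 1.52 in control pools (difference -0.81 ± 0.12, limma adjusted p = 0.00906). Cenpt fell by 0.88 and cenpk by 1.18 on the log2 scale (limma adjusted p = 0.0111 and 0.0143), and the kinetochore motor gene cenpe fell by 1.08 (adjusted p = 0.0286 in limma, needing each exposed pool and control 3).

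Of the spindle checkpoint genes in this group, only mad2l1 fell. Mad2l1 encodes the Mad2 protein that binds Cdc20, and its difference was -1.06 ± 0.19 (limma adjusted p = 0.0201; 0.0619 without exposed pool 3 and 0.0541 without control pool 3). Bub1ba (-0.51 ± 0.14, adjusted p = 0.0671 in limma) and bub3 (-0.31 ± 0.09, adjusted p = 0.0866) did not pass, though every exposed pool lay below every control pool. Mad1l1 had a difference of -0.30 (adjusted p = 0.346 in limma), and bub1bb one of 0.03 with a 95% interval of -0.19 to 0.26. Only a probe set of median below 1, a kind that rarely passed, measured bub1bb. Mad2l2, which is known chiefly from DNA repair despite its name, had a difference of -0.05 with an interval of -0.46 to 0.37. Bub1ba passed after quantile normalization (adjusted p = 0.048) and with array weights (adjusted p = 0.0304), and bub3 with array weights (adjusted p = 0.037).

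Spindle motors and other spindle and division genes were lower in 6 of 11 cases, with a median difference of -0.67. Kif11 encodes the motor that pushes spindle poles apart. Its ratios were 0.565, 0.635 and 0.639 in exposed pools, against 1.36, 1.85 and 1.44 in control pools, a difference of -1.33 ± 0.14 (2.51-fold lower; limma adjusted p = 0.00251). Kif14, a kinesin of cell division, had ratios of 0.648, 0.581 and 0.583 in exposed pools and 1.35, 2.48 and 1.61 in control pools. The exposed pools were nearly alike while control pool 2 stood high, and the difference was -1.54 ± 0.21 (limma adjusted p = 0.0078). Anillin, which shapes the cleavage furrow, is encoded by anln, with ratios of 0.534, 0.597 and 0.690 in exposed pools and 1.06, 1.35 and 1.21 in control pools (difference -0.99 ± 0.14, limma adjusted p = 0.00779). Nusap1, a spindle microtubule binder, had ratios of 0.547, 0.683 and 0.720 in exposed pools and 1.33, 1.65 and 1.22 in control pools (difference -1.11 ± 0.16, limma adjusted p = 0.00814). These 4 genes had no overlap and held their calls without any 1 array. Kif23, a motor of the midzone between separating chromosomes, fell by 0.71 on the log2 scale (limma adjusted p = 0.0151), a call that needed exposed pool 2 and control 3. Kif2c, which takes microtubule ends apart, fell by 0.67 (limma adjusted p = 0.0265), a call that needed exposed pools 1 and 2 and controls 2 and 3.

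The remaining kinesins grouped with the spindle genes did not pass. Kif15, which can act beside Kif11, had a difference of -0.44 ± 0.12 with no overlap between the groups (adjusted p = 0.0683 in limma; 0.0467 after quantile normalization and 0.0238 with array weights). Chromosome-bound kif4 (-0.20), kif18a (-0.18), kif20a (-0.12) and kif20bb (0.002) had overlapping groups and adjusted p from 0.345 to 0.993 in limma. The value of kif4 is a mean over 3 probe sets that differed. Cdc20, the activator of the anaphase-promoting complex, was the only measured gene in the group for exit from mitosis. Its ratios were 0.359, 0.773 and 0.579 in exposed pools, against 1.23, 1.88 and 1.47 in control pools. Exposed pool 1 was the lowest of all, and the difference was -1.47 ± 0.29 (2.76-fold lower; limma adjusted p = 0.0237), a call that needed exposed pools 1 and 3 and controls 2 and 3.

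Of the 6 genes grouped by their cell division cycle associated symbols, cdca8 aside, 3 fell. Cdca7a, of a family tied to chromatin remodelling in mammals, had ratios of 0.581, 0.651 and 0.716 in exposed pools, against 1.28, 1.52 and 1.40 in control pools (difference -1.11 ± 0.12, limma adjusted p = 0.00284). Its paralogue cdca7b had ratios of 0.659, 0.764 and 0.670 in exposed pools, against 1.24, 1.50 and 1.33 in control pools (difference -0.95 ± 0.11, limma adjusted p = 0.00443). Cdca3, which in vertebrates helps to remove the Wee1 kinase, had ratios of 0.607, 0.717 and 0.794 in exposed pools, against 1.21, 1.40 and 1.54 in control pools (difference -0.97 ± 0.14, limma adjusted p = 0.00885). The groups were separate in all 3 genes. Cdca4 had ratios of 0.882, 0.931 and 0.850 in exposed and 1.14, 1.07 and 1.08 in control pools, a separation with a smaller difference of -0.31 ± 0.09 that did not pass (adjusted p = 0.0828 in limma). Neither the sororin gene cdca5, needed for sister chromatid cohesion (-0.27, adjusted p = 0.338), nor cdca9 (0.32, adjusted p = 0.47) passed, and exposed pool 3 was the highest pool of cdca9, at 1.33.

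The 6 other kinesins, not grouped with the spindle motors here, and the lamins had no gene that passed in limma. Over all genes, 4771 of 8793 had a positive difference, the median was 0.02, and 24.1% had an unadjusted p under 0.05. Of these 6 kinesins 5 had a positive difference, the median was 0.07, and 1 had an unadjusted p under 0.05. That gene, kif5aa, encodes a motor of axonal transport and had ratios of 2.90, 1.68 and 1.04 in exposed pools, against 0.482, 0.958 and 0.710 in control pools. The groups did not overlap, yet the exposed pools spread widely, and the difference of 1.32 ± 0.39 did not pass (adjusted p = 0.086 in limma). Neuronal marker genes had median log2 ratios of 0.90, 0.12 and 0.15 in exposed pools 1 to 3, against -0.56, -0.21 and -0.53 in control pools, and their part in the kif5aa values was not tested. Kif1b, also of axonal transport, had ratios of 0.915, 0.980 and 0.793 in exposed and 0.767, 0.715 and 0.858 in control pools (difference 0.20, adjusted p = 0.384 in limma). Hedgehog pathway kif7, with ratios of 1.03, 0.996 and 1.08 in exposed and 1.00, 0.974 and 0.996 in control pools, had a difference of 0.06 with a 95% interval of -0.14 to 0.26. Ciliary transport is served by kif3a, with ratios of 1.08, 1.01 and 0.881 in exposed and 0.989, 1.23 and 0.663 in control pools, a difference of 0.08 with an interval of -0.43 to 0.60. The groups overlapped in these 3 genes. Kif19 and kif2a had differences of 0.04 and -0.04. The nuclear lamina gene lmnb1 had ratios of 0.941, 1.06 and 0.957 in exposed and 1.02, 1.39 and 1.19 in control pools (-0.27, adjusted p = 0.277 in limma). For lmnb2 they were 0.639, 0.686 and 0.750 in exposed and 0.663, 0.647 and 0.673 in control pools, a difference of 0.06 with a 95% interval of -0.16 to 0.29. Lmnb2 was measured only by a probe set of median below 1, a kind that rarely passed.

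A gene's value is the mean of the log2 ratios of its probe sets, and the probe sets of one gene often disagreed. Among the 17 genes with several probe sets, 11 had at least 1 probe set that was lower by limma over all probe sets, and in none of these 11 were all probe sets lower. The same was not counted for all 1539 genes with several probe sets, so such disagreement cannot be called particular to the mitosis genes. Both ends of this spread were seen in smc2, with -1.81 ± 0.17 (adjusted p = 0.0026 in limma) for one probe set and -0.003 ± 0.10 (adjusted p = 0.99) for the other. In the same way incenp gave -1.67 and -0.02, anln -1.74 and -0.24, and kif23 -1.44 and 0.02. Kif2c gave -1.28, -0.93 and 0.20, and ncaph -1.21, -0.25 and -0.02. Kif4, which did not pass as a gene, gave -0.85 (adjusted p = 0.056 in limma), 0.02 and 0.25. In nusap1 and ccnb3 all probe sets were negative, from -1.30 to -0.79 and from -1.01 to -0.62. Top2a, kif15 and bub3 did not pass as genes but each had a probe set that did, with -0.56 (adjusted p = 0.0462), -0.93 (adjusted p = 0.0235) and -0.60 (adjusted p = 0.0466) in limma.

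Probe sets whose median over the 6 arrays was below 1, for which the divisor could not be inferred from the ratios, rarely passed anywhere on the array. Of the 94 mitosis probe sets 38 were lower, against 3.24% on the whole array. Of these 94, 21 were of this kind and 1 of them, of kif2c, was lower, against 37 of the 73 others. Over the whole array 0.034% of such probe sets and 3.99% of the others were lower. The 0.034% is 1 of 2944 probe sets, which is that of kif2c itself, so it is no separate background for it. The 7 genes measured only by such probe sets, namely birc5b, bub1bb, ccna1, ccnb1l, cdca9, kif20bb and lmnb2, are all among the 30 that did not pass. Without these probe sets 58 genes were left and 36 fell, the same 35 and bub3, with a median of -0.82, against 5.59% lower of all genes. Smc2, anln, incenp, kif2c and bub3 were then left with 1 probe set each. Their differences were thus the values given above for that probe set, -1.81, -1.74, -1.67, -1.28 and -0.60 (limma adjusted p = 0.0343 for bub3). This is no separate support for a larger fall. Kif4 (-0.30) and top2a (-0.28) still did not pass.

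**Figure D3:**
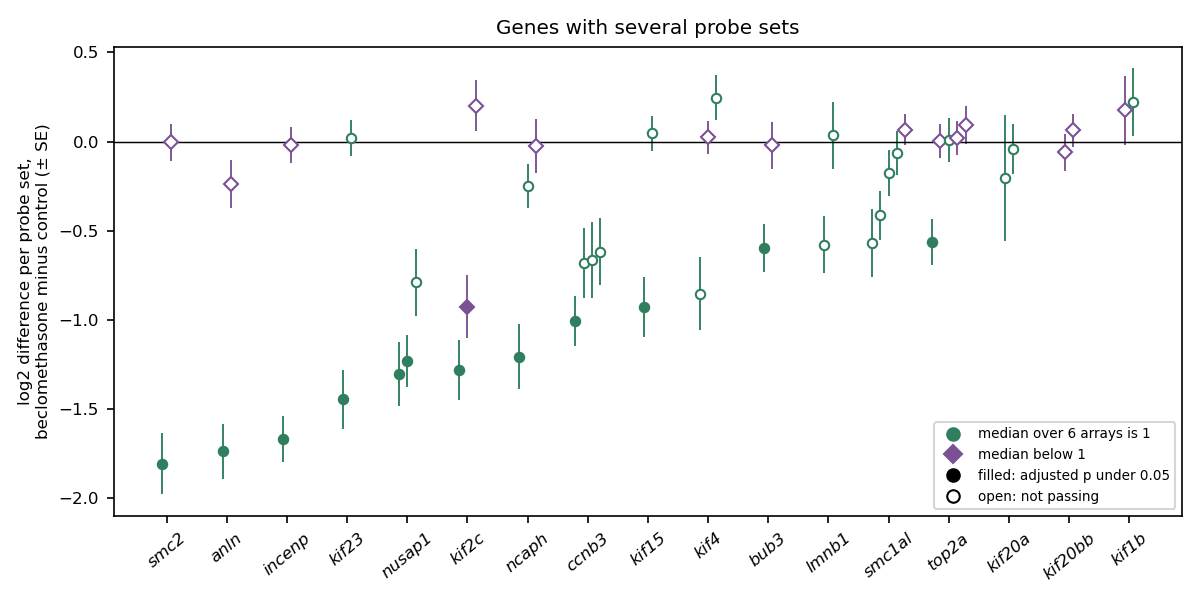
Log2 differences (exposed minus control, vertical axis, with standard errors) of each probe set of the 17 genes that have several. Circles are probe sets with a median ratio of 1 over the 6 arrays and diamonds those with a median below 1, filled where the adjusted p is under 0.05. Smc2 spans -1.81 to -0.003, and only 1 diamond, of kif2c, is filled.

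Within a group, the pools differed in the same order in many of the genes that fell. The median log2 ratio of the 65 genes stood at -0.61, -0.39 and -0.31 in the exposed pools, by number, against 0.16, 0.43 and 0.28 in the controls. Of the 35 genes that fell, 29 had their lowest exposed value in pool 1 and 26 their highest exposed value in pool 3. Control pool 2 held the highest control value of 31 of them and control pool 1 the lowest of 24. Every exposed median lay below every control median in 7 of the 9 role groups, the exceptions being the lamins and the other kinesins.

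Marker genes of other cell types moved with some of these pools. Beside the counts given below, 4.58% of all genes were lower and 4.24% higher in limma. Over 15 skeletal muscle genes of a list of 23, the median log2 ratio was 0.90, 0.02 and 0.06 in exposed pools and -1.95, 0.003 and -1.54 in control pools, and their summed ratios spanned 15.7 to 26.5 under exposure and 4.40 to 15.6 in the controls. Liver and yolk layer genes, 14 of a list of 18, had medians of 1.26, 2.32 and -0.002 in exposed pools and -0.61, -0.37 and -0.14 in control pools, and summed ratios of 13.6 to 289 and of 9.65 to 12.4. Leukocyte genes, 6 of 10, had medians of -0.12, -0.03 and -0.04 in exposed pools and -0.14, 1.17 and 1.17 in control pools, with summed ratios of 5.58 to 5.86 and of 5.23 to 12.6. Epidermal genes, 17 of 19, were lower in 9 cases, with medians of -0.31, -0.26 and -0.44 in exposed pools and 0.25, 0.22 and 0.19 in control pools, and summed ratios of 12.4 to 14.3 and of 19.9 to 22.1. Neuronal genes, 8 of 10, were higher in 2 cases, with sums spanning 9.10 to 15.7 under exposure and 5.53 to 6.78 in the controls. Macrophage genes (7 measured) were lower in 1 case, mesenchyme genes (12) higher in 2 and melanophore genes (4) higher in 1, and no erythroid gene (8) passed in limma. No ratio of any probe set was 0 (the lowest was 0.0567), so the ratios do not tell whether a marker was detected. The part of these cell types in the results was not tested. Without exposed pools 1 and 2 together, the pools with high liver and yolk layer ratios, 0 of the 65 genes passed in limma, as did 0.0227% of all genes in the lower direction. That is a comparison of 1 pool with 3, which takes the single pool to vary like the controls, and the member median in it was -0.63. In all 35 genes that fell, every exposed pool lay below every control pool. Their difference therefore had to stay negative there, and its sign tells nothing about the loss of these pools.

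**Figure D4:**
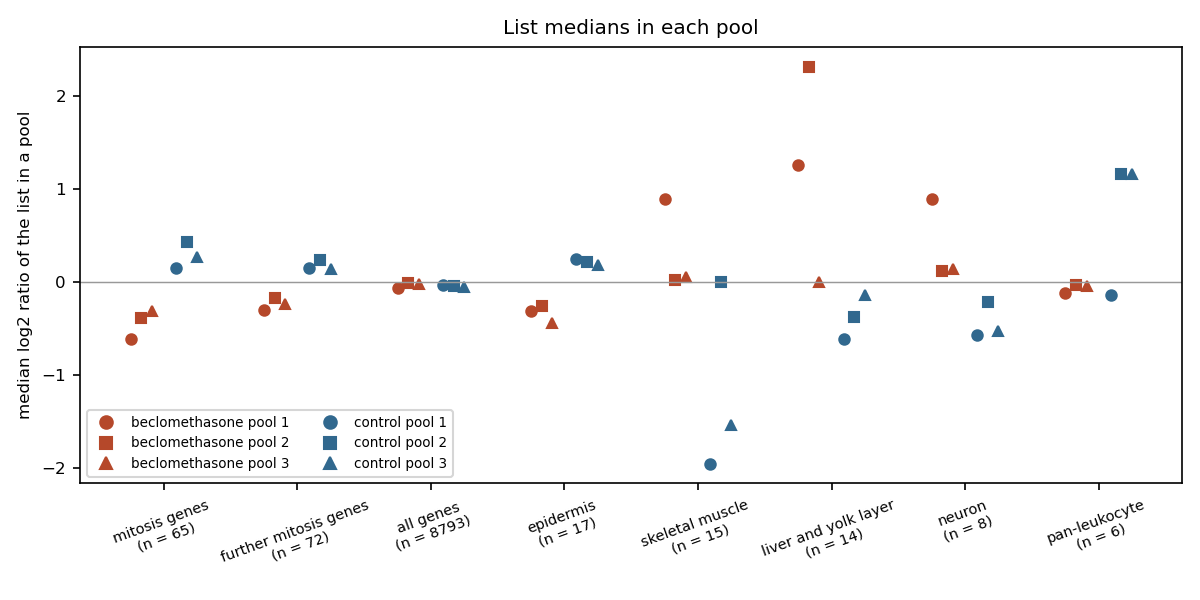
Median log2 ratio (vertical axis) of each gene list in each of the 3 exposed and 3 control pools. The mitosis medians of the exposed pools, -0.61 to -0.31, lie below those of the control pools, 0.16 to 0.43. Such a separation is not particular to them. Epidermis medians are also lower in exposed pools, -0.44 to -0.26 against 0.19 to 0.25. Neuron medians are higher there, 0.12 to 0.90 against -0.56 to -0.21. Skeletal muscle and liver and yolk layer medians are higher in exposed pools too, but they and the leukocyte medians spread widely within a group.

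Some genes of the same machinery outside the symbol rule fell as well. A further list was also chosen with earlier results of these data known. Its 109 symbols of cohesin loading, centromere, spindle, division, anaphase-promoting complex and cell cycle transcription genes matched 72 genes on the array. Of these, 25 fell and 0 rose in limma, with 37 at an unadjusted p under 0.05, beside 4.58% lower, 4.24% higher and 24.1% at that unadjusted p over all genes, and the median difference was -0.35. The smallest p was that of haspin, a histone kinase of mitotic chromosomes, with ratios of 0.652, 0.676 and 0.606 in exposed pools, against 1.32, 1.49 and 1.42 in control pools (difference -1.13 ± 0.10, limma adjusted p = 0.00154). Prc1a and prc1b, which encode the bundler of midzone microtubules, fell by 1.25 and 1.29 on the log2 scale, and the cyclin F gene ccnf was 2.30-fold lower. The spindle gene tacc3 fell by 1.22 and the kinetochore scaffold gene knl1 by 0.87, and the adjusted p of these 5 ran from 0.00287 to 0.0105 in limma.

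Among the regulators, foxm1, a transcription factor of mitotic genes in mammals, had ratios of 0.656, 0.586 and 0.828 in exposed pools, against 1.17, 1.54 and 2.01 in control pools. The groups were apart, with control pool 3 the highest, and the difference was -1.17 ± 0.21 (limma adjusted p = 0.0205). The proliferation marker gene mki67 had ratios of 0.803, 0.832 and 0.864 in exposed pools, against 1.11, 1.01 and 1.11 in control pools. These were separate but close, and the difference of -0.37 ± 0.09 did not pass (limma adjusted p = 0.0524; -0.56 and adjusted p = 0.0185 without probe sets of median below 1, and 0.0263 to 0.0438 after quantile normalization, centring, array weights or a pseudocount of 1). The cell cycle inhibitor gene cdkn1bb had a difference of -0.13 ± 0.13 (limma adjusted p = 0.64), and cdkn1a was not analysed here. Cdkn1ca, an inhibitor gene named here after its values were seen as the most positive of the 72, had a difference of 0.66 ± 0.21 (limma adjusted p = 0.104). Of the 25 genes that fell, 8 held the call without any 1 array, which was not counted over all genes. When an exposed pool or control 2 or 3 was left out, 11 to 14 fell. The call of foxm1 needed exposed pools 1 and 2 and control 2.

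**Figure D5:**
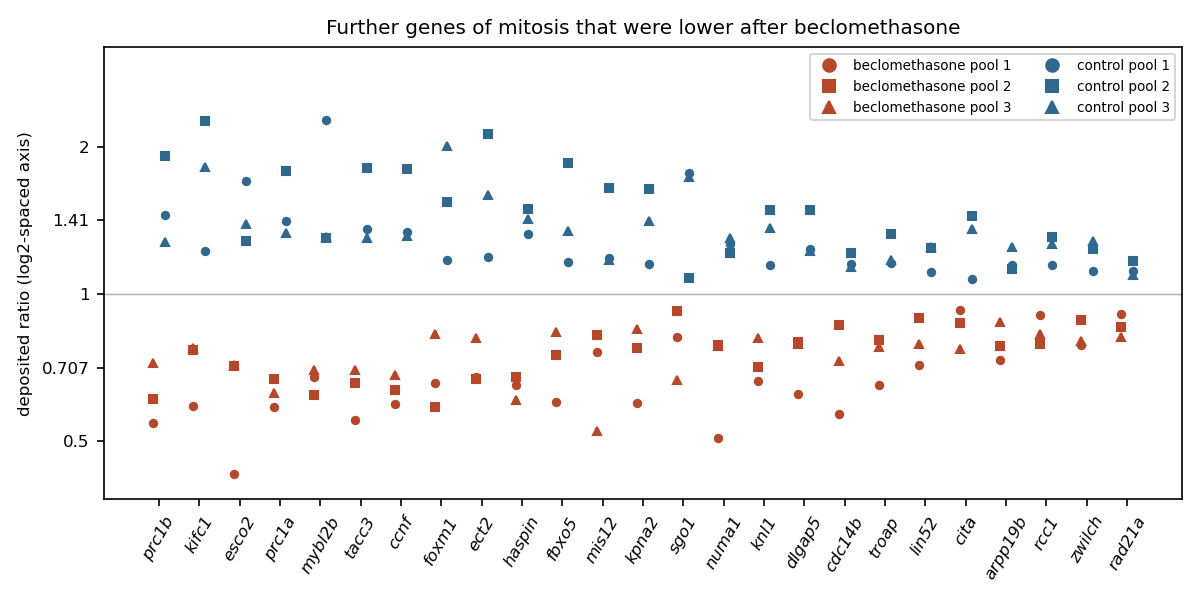
Deposited ratios (vertical axis, spaced by log2) of the 25 further mitosis genes that were lower, in the 3 exposed and the 3 control pools, ordered by their log2 difference. All exposed pools lie below 1 and all control pools above it, and the groups come closer from prc1b on the left to rad21a on the right.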

How the data were processed

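RNA (100 ng per pool, 2 cycles of labelling) was hybridised to Affymetrix arrays. GCRMA appears without a version, per the submitters' processing notes. Each value deposited by the authors was taken as a linear ratio, because the 6 values of a probe set had a median of 1 (tolerance 1e-06) in 12601 of 15617 cases, a lower one in 3015 and a higher one in 1. No source used here names the divisor, and signal over background is unknown. Control probe sets (115) were left out. Of the other 15502, 10795 had 1 gene symbol, 135 several and 4572 none. Entrez numbers matched 10711 and changed 1 symbol, of no gene studied here.

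Log2 ratios were averaged per gene and compared over 8793 genes with limma 3.58.1 in R 4.3.3 (lmFit, eBayes, two-sided, Benjamini-Hochberg adjustment, threshold 0.05), after a test on simulated data. No filter or pseudocount was used. Values in every pool are given for up to 4 genes of smallest p in each role group and a preset few. Outside the symbol rule the 6 genes of smallest p and foxm1, mki67 and cdkn1bb are named. Rad21a, the stag genes and cdkn1ca are named in addition, after their values were seen. The genes and lists were chosen with earlier results of these data known. The alternatives were quantile normalization, array centring, a trended robust variance, weighted arrays, the replicate number as a block, and arrays left out. Further ones were a pseudocount of 1, probe sets of low median left out, and probe sets as the unit. A list without the other kinesins and lamins and a threshold of 0.01 were also used. The promoter search of the design was not run, since no promoter sequence was used here.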

Additional observations from a re-analysis of the deposited data

How the results depend on the processing

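The number of mitosis genes that fell was 31 to 41 under quantile normalization, centring, a variance trend, array weights or the replicate block. A pseudocount of 1 and leaving out probe sets of median below 1 gave numbers within this range. Of all genes, 2.42% (replicate block) to 7.03% (array weights) were lower under these settings, and 1.96% to 5.99% with any 1 array left out. The number of mitosis features that fell was 38 of 94 with probe sets as the unit, against 3.24% of all probe sets. The number of mitosis genes that fell was 23 to 38 with any 1 array left out and 18 at a threshold of 0.01. The share of all genes lower at a threshold of 0.01 was not counted, for these or for the further 72 genes. Without exposed pools 1 and 2 fewer samples were fitted, and the median difference was -0.63. All 35 falls were among the 57 genes without the other kinesins and lamins. No mitosis gene, and none of the further 72, rose under any of these. The median difference of -0.74 was -0.37 with a pseudocount of 1, which shrinks log2 differences by construction, -0.57 over probe sets, and -0.79 to -0.60 with any 1 array left out. With the replicate number as a block 31 of the 35 kept the call and 17 of the further 72 fell, and 391 of all genes passed in place of 776. Equal numbers are not stated to pair pools, and their deviations from the group means correlated at -0.22, -0.08 and 0.08. The calls of ncapg2, ncaph, ccnb3 and kif2c were lost with the block. For the further 72 genes the count of 25 was 11 to 24 with any 1 array left out, 5 at a threshold of 0.01 and 0 without exposed pools 1 and 2. The cause was not tested where none is given.

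The sign turned in 29 cases over 14 genes, none passing before or after. Quantile normalization gave -0.061 for birc5b, -0.074 for bub1bb, -0.046 for ccna1, -0.082 for kif20bb and -0.040 for lmnb2. For kif20bb, centring gave -0.011 and the pseudocount -0.0051. Array weights gave 0.0016 for ccnb1l and 0.031 for kif2a. With any 1 array left out, differences ranged from -0.018 to 0.066 for bub1bb, from -0.034 to 0.12 for ccna1, from -0.12 to 0.041 for ccnb1l, from -0.079 to 0.14 for kif19, from -0.29 to 0.077 for kif20a, from -0.043 to 0.037 for kif20bb, from -0.12 to 0.012 for kif2a, from -0.16 to 0.29 for kif3a and from -0.24 to 0.11 for mad2l2. Without exposed pools 1 and 2, ccnb1l gave 0.033, cdca5 0.036, kif18a 0.017, kif3a -0.080 and top2a 0.030. With 3 arrays per group their number limits every value.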
